A study of Homo sapiens with 12 samples.

Results

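The genes described here are those of the cytosolic ribosomal proteins, the protein parts of the ribosomes that translate nuclear messages. They were taken from the deposited gene tables by name, as RPL or RPS followed by a number and an optional A or X, together with RPLP0, RPLP1, RPLP2, RPSA and FAU, on a numbered chromosome or X. The rule found 78 genes of 63677 in the tables, 46 of the large and 32 of the small ribosomal subunit. It left out pseudogenes, paralogues whose names end in L, and 19 entries of the same names on patches and alternative haplotypes, which were listed at 0 in all libraries. Genes of ribosomal proteins under other names, such as RACK1 (listed as GNB2L1), were not matched. Chromosome 19 carried 12 of the 78 genes, chromosome 3 carried 7, chromosomes 11 and 17 carried 6 each, and chromosomes 9 and X carried 4 each.

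The cells were DAOY, a line from a human medulloblastoma, a tumour of the cerebellum. They were wild type (WT) or CRISPR/Cas9 lines with NOTCH1 (NOTCH1KO) or NOTCH2 (NOTCH2KO) as the target, and whether each line came from a single clone is not stated. Every genotype was grown on a coat of Jagged1, a ligand of Notch receptors, or of Fc as its control protein, and received either the solvent DMSO or DAPT, an inhibitor of the γ-secretase that releases active Notch, for 12 h. This gave 12 libraries, with 1 library for each combination of genotype, plate and drug. A genotype was therefore compared over 4 cultures and a culture over 3 genotypes. No source ties these libraries to repeated cultures (a general remark on independent experiments in the study's legends names no assay). The tests of genotype and culture therefore set their differences against departures from an additive pattern among these libraries, not against replicate error. Where values of all libraries are given below, each genotype starts with the Fc plates (DMSO before DAPT) and ends with the Jagged1 plates (again DMSO before DAPT).

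A ribosome holds a single copy of nearly every ribosomal protein, and the proteins of the stalk are the exception. The small subunit decodes the message, and the large subunit forms the peptide bond and releases the growing chain through its exit tunnel. The genes lie scattered over the genome, and most of their transcripts begin with a C followed by a run of pyrimidines, the terminal oligopyrimidine (TOP) motif, through which mTOR and LARP1 set how strongly the messages are translated. Loss of a single gene copy of many of them causes Diamond-Blackfan anaemia, and RPL5 and RPL11 that are not built into a ribosome bind MDM2. In medulloblastoma, as in other growing tumours, ribosome supply is tied to growth through MYC and mTOR.

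The letters that set these genes apart from others lie at the transcript start, and 60 bases around it are printed for the genes named later and for all those on chromosomes 9 and X. The windows run from 40 bases before to 20 bases after the RefSeq start of GRCh38.p14, on the strand of the gene, with the start-site pyrimidine run in capitals where it begins with C within 5 bases of the start and is at least 5 bases long. They are RPL35 (chr9:124861938-124861997, minus strand), RPL12 (chr9:127451387-127451446, minus), RPL7A (chr9:133348178-133348237, plus), RPS6 (chr9:19380217-19380276, minus), RPS4X (chrX:72277229-72277288, minus), RPL10 (chrX:154398337-154398396, plus), RPL36A (chrX:101390971-101391030, plus), RPL39 (chrX:119791611-119791670, minus), RPS25 (chr11:119018324-119018383, minus) and RPL6 (chr12:112411423-112411482, minus). RPL10 had 3 windows in RefSeq and RPL6 had 2, and the window with the longest run, or else the first, is shown.
RPL35: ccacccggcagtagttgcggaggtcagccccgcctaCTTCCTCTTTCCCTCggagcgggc
RPL12: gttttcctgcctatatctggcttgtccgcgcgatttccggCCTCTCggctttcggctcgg
RPL7A: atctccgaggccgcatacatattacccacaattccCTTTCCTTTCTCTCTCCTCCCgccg
RPS6: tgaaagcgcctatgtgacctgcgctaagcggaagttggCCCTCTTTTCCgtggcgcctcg
RPS4X: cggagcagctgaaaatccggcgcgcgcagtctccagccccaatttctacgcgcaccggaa
RPL10: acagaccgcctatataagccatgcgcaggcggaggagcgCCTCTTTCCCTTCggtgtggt
RPL36A: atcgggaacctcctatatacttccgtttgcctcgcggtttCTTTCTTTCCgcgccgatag
RPL39: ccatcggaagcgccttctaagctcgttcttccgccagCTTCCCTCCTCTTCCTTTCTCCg
RPS25: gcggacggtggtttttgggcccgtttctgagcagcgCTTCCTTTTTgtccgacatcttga
RPL6: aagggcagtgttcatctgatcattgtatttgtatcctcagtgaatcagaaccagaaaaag

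The pyrimidine run was 15 bases long in RPL35, 6 in RPL12, 21 in RPL7A and 22 in RPL39, while the windows of RPS4X and RPL6 held none by this rule. RefSeq start windows of 300 bases were matched for 63 of the 78 genes. A run was present in 54 of these 63 (85.7%), against 25.2% of the 27305 genes of the RefSeq table. The ETS-type letters CCGGAAG, on either strand, stood in 34.9% of the matched genes against 12.2% of all, and the YY1-type letters AAGATGGC in 11.1% against 3.52%. The SP1-type letters GGGCGG stood in 58.7% against 48.3%, and TATAAA in 7.94% against 14%. The letters TGGGAA, the core bound by CSL (the DNA-binding partner of active Notch), stood in 15 of the 63 genes (23.8%), against 28.1% of all genes. A gene with several windows counted once if any of them matched, and a match of letters is not evidence of binding.

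Levels were compared as TPM, a measure in which the reads of a gene are divided by its length and then scaled to a fixed sum per library, so that genes can be compared with each other. All 78 genes were expressed and tested. Their mean TPM over the 12 libraries ran from 72.9 for RPS26 to 3612 for RPS18, a ratio of 49.5, with a median of 763, while the median of all genes tested was 15.9. Among the highest were RPS18 of the small subunit and RPL11, RPL30 and RPL5 of the large subunit, and 28 of the 78 stood among the 100 most abundant genes. The 5 lowest were RPS26, RPS28, RPL21, RPL36A and RPL22. The median was 744 TPM over the large-subunit genes and 840.1 TPM over the small-subunit genes. RPL5 and RPL11, which carry the 5S RNA into the large subunit, stood at 2006 and 2281 TPM. The stalk genes RPLP0, RPLP1 and RPLP2, whose proteins recruit the elongation factors, stood at 1324, 377 and 744 TPM.

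Processed pseudogenes, reverse-transcribed copies that keep nearly the whole coding sequence, took a large share of the reads of this family. GENCODE v29 gave 1126 of the identifiers in the tables a name of a pseudogene of a member. Of these, 412 had a mean TPM of at least 1, and together the copies summed to 37648 TPM. The copies held a median of 27.9% of the TPM of a member and its copies together, and more than 10% for 48 members. RPS26 stood at 72.9 TPM beside 533 TPM in its copies, and RPL7 at 415 TPM beside 2475 TPM. A single copy, RPS23P8, had a mean of 2405 TPM, above RPS23 itself at 1376 TPM. With the copies added, the ratio between the highest (RPS23) and the lowest (RPS15) total fell to 12.2, while the ratio between the upper and the lower quartile was 2.59 without and 2.49 with the copies. Reads that fit a member and a copy equally well cannot be assigned with 51-base reads, and the rule by which they were shared out is not stated in any source read here. Genes on the same strand overlapped 30 members, and for FAU, RPL17, RPL36A and RPS15A they held more than 10% of the member's level.

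**Figure D1:**
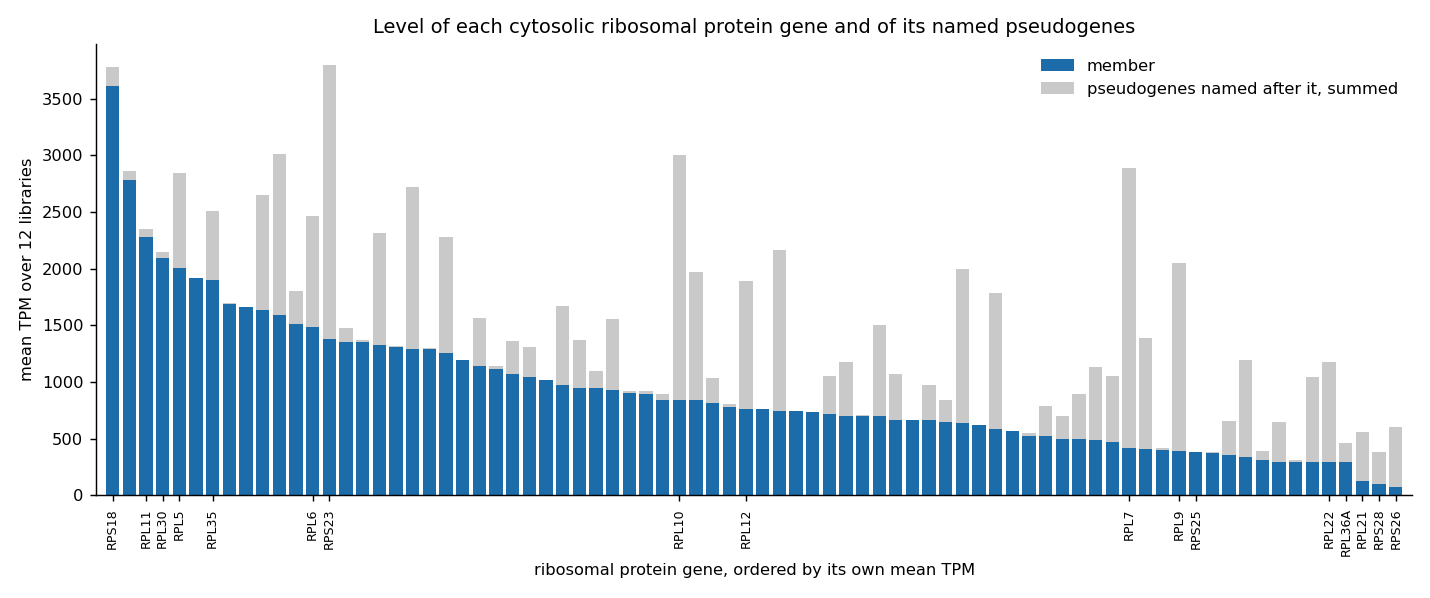
Mean TPM over the 12 libraries of each of the 78 genes (blue bars, ordered by height from RPS18 at 3612 to RPS26 at 72.9) and, stacked on top in grey, the summed mean TPM of the pseudogenes named after it. RPS23, RPL10, RPL7 and RPL9 carry tall grey bars, while RPS18 and RPL11 have little grey (17 of the bars are labelled).

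Between libraries, the ratio of the highest to the lowest TPM of a member had a median of 1.87. It was below 1.5 for 20 members, above 2 for 31 and above 3 for 9. RPS4X had 1.27 and RPS6, the substrate of the S6 kinases, had 1.28. The largest ratios were those of RPS19 (7.43), RPL28 (5.89), RPL37 (4.01), RPL27A (3.91) and RPS16 (3.91). RPS19, which is mutated most often in Diamond-Blackfan anaemia, had 709.8, 766, 2049 and 603 TPM in WT. In NOTCH1KO it had 674, 1941, 453 and 798 TPM, and in NOTCH2KO 609, 637, 276 and 571 TPM. Its high values fell in a different culture in WT and in NOTCH1KO, and the 3 genotypes overlapped. RPL28 dropped to 192 TPM in NOTCH1KO on Fc with DAPT, against 568 to 1130.0 TPM in all other libraries. For 19 members, RPS19, RPL28 and RPL27A among them, the ratio of coverage to FPKM also shifted by more than 1.5 times between libraries. That ratio moves when reads are assigned to other transcripts of the same gene, and its part in these values was not tested.

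The libraries held between 18.3 and 22.42 M reads. NOTCH1 stood at 3.19 ± 0.34 TPM in WT, 0.565 ± 0.249 in NOTCH1KO and 3.96 ± 0.43 in NOTCH2KO, and NOTCH2 at 80.7 ± 9.56, 103 ± 10.9 and 50.7 ± 7.95 TPM (SD, n = 4 each), so NOTCH2 RNA was still present in NOTCH2KO. VIM, SOX9, ZIC1, PTCH1, GLI2 and OTX2 were detected in all libraries, with lowest values of 2784, 14.5, 4.40, 3.78, 2.79 and 1.34 TPM. NES ran from 0.462 to 8.70 TPM, and ATOH1 was at 0 to 0.252 TPM. Of the blood markers, PTPRC, CD3E and HBB were listed at 0 and CD79A reached 0.184 TPM, and of the muscle markers MYOD1 was listed at 0 and DES reached 1.09 TPM. The endothelial markers CDH5 and VWF reached 0.514 and 0.0812 TPM, and the epithelial markers EPCAM, CDH1 and KRT5 reached 0.806, 0.349 and 6.42 TPM. Pairs of libraries correlated with r between 0.924 and 0.976 over all genes tested and between 0.849 and 0.959 over the 78 members. The NOTCH2KO library on Jagged1 with DMSO held the lowest value of 31 of the 78 members, and the NOTCH1KO library on Fc with DAPT held the lowest of 15 and the highest of 17.

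The first question was which of these genes differed in cells with targeted NOTCH1. In NOTCH1KO against WT, 3 members fell and 4 rose, and the other 71 did not pass the test. All 3 that fell, RPL35, RPL12 and RPL7A, encode large-subunit proteins and lie on the long arm of chromosome 9. All 4 that rose, RPS27, RPSA, RPS12 and RPS24, encode small-subunit proteins and lie on 4 other chromosomes. The background of all genes tested was 10.7% called higher and 12.8% called lower, and the members' shares were 5.13% and 3.85%, neither above it. The median difference of the members was -0.00 in log2, with 39 above and 39 below 0. Genotypes did not overlap for 13 members that were higher and 6 that were lower, against 11.9% and 12.5% of all genes.

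RPL35 (ENSG00000136942, chr9:127620159-127624260 in GRCh37, minus strand) sits at the mouth of the exit tunnel, where the signal recognition particle docks. It stood at 2993, 2103, 2578 and 2602 TPM in WT, 1250.0, 860.4, 1151 and 1345 TPM in NOTCH1KO and 2193, 2260.5, 1565 and 1954 TPM in NOTCH2KO. Every NOTCH1KO library lay below every WT and NOTCH2KO library. The log2 difference from WT was -1.17 ± 0.14 (SE, limma adjusted p = 0.00117), lower in 4 of 4 cultures, and a 55.2% lower mean.

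RPL12 (ENSG00000197958, chr9:130209953-130213684, minus strand) forms the base of the stalk next to the factor-binding centre. It had 851, 1066, 904 and 899 TPM in WT, 569.6, 591, 672 and 602 TPM in NOTCH1KO and 761, 843, 701 and 731 TPM in NOTCH2KO. The 3 genotypes did not overlap, with NOTCH1KO lowest and WT highest. The log2 difference of NOTCH1KO from WT was -0.61 ± 0.08 (adjusted p = 0.00169). RPL7A (ENSG00000148303, chr9:136215069-136218281, plus strand), a large-subunit protein whose gene hosts several small nucleolar RNAs in its introns, had 1618, 1907, 1755 and 1825 TPM in WT and 1525, 1484, 1498 and 1395 TPM in NOTCH1KO. These groups did not overlap, and the log2 difference was -0.27 ± 0.08 (adjusted p = 0.0418), but this call was lost in 17 of 25 other settings, among them no filter on low values (adjusted p = 0.113). RPS6 (ENSG00000137154, chr9:19375713-19380252, minus strand), lies on the short arm of the same chromosome. Its values of 812, 893, 845 and 854 TPM in NOTCH1KO lay above the 744, 776, 789 and 785 TPM in WT, with a log2 difference of 0.14 ± 0.05 that did not pass the test (adjusted p = 0.077).

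**Figure D2:**
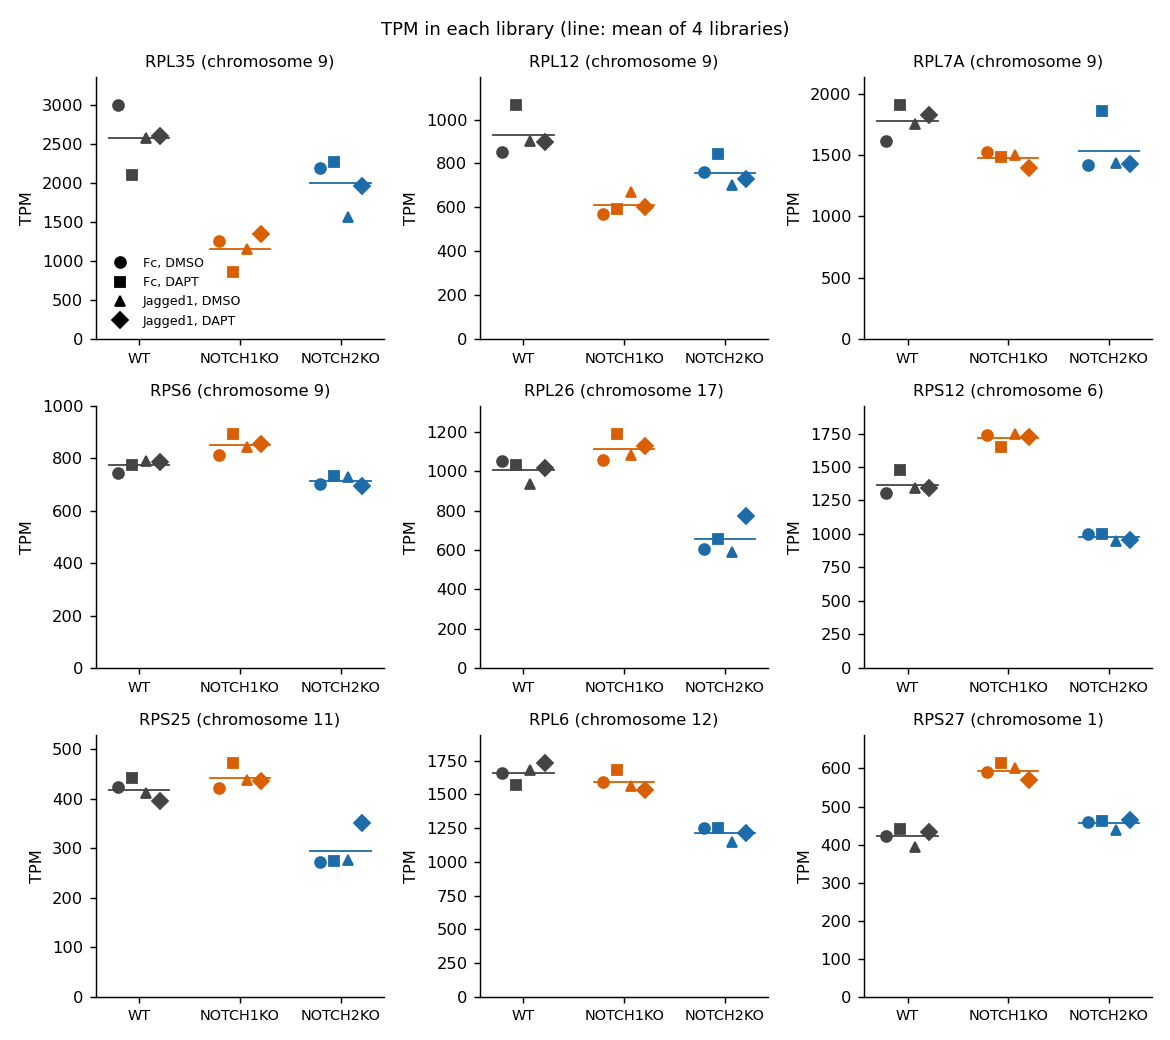
TPM in each of the 12 libraries for 9 of the genes, with a panel per gene, genotypes along the x axis, symbols for the culture, a line at the mean of 4 libraries and each y axis starting at 0. RPL35 and RPL12 are lowest in NOTCH1KO, RPS27 is highest there, and RPL26, RPS12, RPS25 and RPL6 are lowest in NOTCH2KO.

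RPS27 (ENSG00000177954, chr1:153963235-153964626, plus strand), a zinc-finger protein on the back of the small subunit, had 421, 441, 395 and 433 TPM in WT and 590.0, 614, 601 and 570.3 TPM in NOTCH1KO, a log2 difference of 0.49 ± 0.06 (adjusted p = 0.00078). NOTCH2KO, at 457 ± 12.1 TPM, lay between them. RPSA, a small-subunit protein also known as a laminin receptor, rose by 0.35 ± 0.07 in log2 (adjusted p = 0.0114) from 564 ± 41.7 to 722 ± 92.1 TPM. RPS12, in the head of the small subunit, rose by 0.33 ± 0.06 (adjusted p = 0.00532), with 1302, 1476, 1345 and 1341 TPM in WT and 1739.9, 1649, 1746 and 1724 TPM in NOTCH1KO. RPS24 rose by 0.27 ± 0.05 (adjusted p = 0.00569), from 1417 ± 63.3 to 1704 ± 87.8 TPM. All 4 genes were higher in NOTCH1KO without overlap in 4 of 4 cultures, those from which they were called. RPL23 at 0.73 and RPLP0 at 0.72 had larger log2 differences, with SEs of 0.28 and 0.30, and did not pass the test.

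The split of calls in this comparison depended on scaling, and their number also on the unit. With libraries centred on the median gene, 7 members were higher and 2 lower. With coverage in place of TPM more were called, 8 higher and 6 lower, a split like the 4 and 3 as fitted. Over all genes, 45.5% of the calls were higher as fitted, 56.1% after centring and 43.2% with coverage.

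The second comparison asked the same of targeted NOTCH2. In NOTCH2KO against WT, 16 members fell and 0 rose, with 7 of the 16 in the large and 9 in the small subunit. Beside them, 7.35% of all genes were called lower and 12% higher, and the members' shares were 20.5% and 0%. At an unadjusted p under 0.05 by limma there were 23 members, and all genes were not counted at that threshold. The median log2 difference of the members was -0.19, against 0.06 over all genes tested, and 64 of the 78 were below 0, against 42.6% of all genes. Genotypes did not overlap for 20 members that were lower and 0 that were higher, beside 9.78% and 15% of all genes. All 16 were lower in NOTCH2KO in 4 of 4 cultures, which adds no separate support, since they were called from these same cultures.

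RPL26 (ENSG00000161970, chr17:8280838-8286531, minus strand), which lies beside the exit tunnel, was lower in NOTCH2KO than in both other genotypes. Its values were 1050.3, 1034, 934 and 1018 TPM in WT, 1059.5, 1189, 1082 and 1129 TPM in NOTCH1KO and 606, 657, 589 and 774 TPM in NOTCH2KO. No NOTCH2KO library reached any other, and the log2 difference from WT was -0.63 ± 0.07 (adjusted p = 0.00123). Of the 16 calls, this one alone held in all 25 other settings, 1 of which required a log2 difference of at least 0.58. The calls of RPL34, RPS25, RPS13, RPS12, RPL6 and RPL11 were lost in that setting alone.

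RPL6 (ENSG00000089009, chr12:112842994-112856642, minus strand), a large-subunit surface protein, had 1661, 1569.7, 1680.3 and 1733 TPM in WT, 1593, 1678, 1566 and 1533 TPM in NOTCH1KO and 1249, 1248, 1149.7 and 1216 TPM in NOTCH2KO. WT and NOTCH1KO overlapped (log2 difference -0.06 ± 0.06, adjusted p = 0.485), and NOTCH2KO lay below both, with a log2 difference from WT of -0.45 ± 0.06 (adjusted p = 0.00174). RPL34, a further protein of the large subunit, had 554, 559, 657 and 567 TPM in WT and 436, 397, 366.3 and 389 TPM in NOTCH2KO, a fall of 0.55 in log2 (SE 0.09, adjusted p = 0.00394). RPL4, RPL11, RPL27 and RPL12 fell by 0.42, 0.34, 0.19 and 0.29. RPL4 lines the exit tunnel, and its groups overlapped. RPL12 was thus lower than WT in both lines. In NOTCH2KO the calls of RPL12 (adjusted p = 0.0384) and RPL27 (adjusted p = 0.0388) were each lost in 12 of 25 other settings and that of RPL4 (adjusted p = 0.0327) in 8, while that of RPL11 was lost in 1, the required log2 difference of at least 0.58.

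RPS25 (ENSG00000118181, chr11:118886422-118889401, minus strand), a protein of the small-subunit head that several viral internal ribosome entry sites require, had 424, 442, 412 and 395 TPM in WT, 422, 472, 439 and 436 TPM in NOTCH1KO and 273, 275, 276 and 350.1 TPM in NOTCH2KO. The NOTCH2KO libraries lay below all others, 3 of them within 3 TPM and the Jagged1 with DAPT library higher. The log2 difference from WT was -0.52 ± 0.09 (adjusted p = 0.00627). RPS12 (ENSG00000112306, chr6:133135580-133138703, plus strand) had 999, 999, 947 and 958 TPM in NOTCH2KO, below every WT and NOTCH1KO library, and fell by 0.48 from WT (SE 0.06, adjusted p = 0.00122). RPS12 thus rose in NOTCH1KO and fell in NOTCH2KO.

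RPS18, the most abundant member, had 3698, 4705, 3789 and 4477 TPM in WT and 3131, 3258, 2679 and 2486 TPM in NOTCH2KO, a fall of 0.53 (SE 0.11, adjusted p = 0.0146). RPS13 had 1282, 1268, 1139.8 and 1153 TPM in WT and 801, 850.3, 939 and 813 TPM in NOTCH2KO, a fall of 0.51 (SE 0.07, adjusted p = 0.00264). RPS26, RPS10, RPS3A and RPS3 fell by 0.50, 0.48, 0.44 and 0.39 (adjusted p = 0.0315, 0.0158, 0.0204 and 0.0109). The call of RPS26 was lost in 8 of 25 other settings, no filter on low values among them, those of RPS10 and RPS3A in 5 each and that of RPS3 in 2. RPS26 and RPS3 lie where the message leaves and enters the small subunit.

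**Figure D3:**
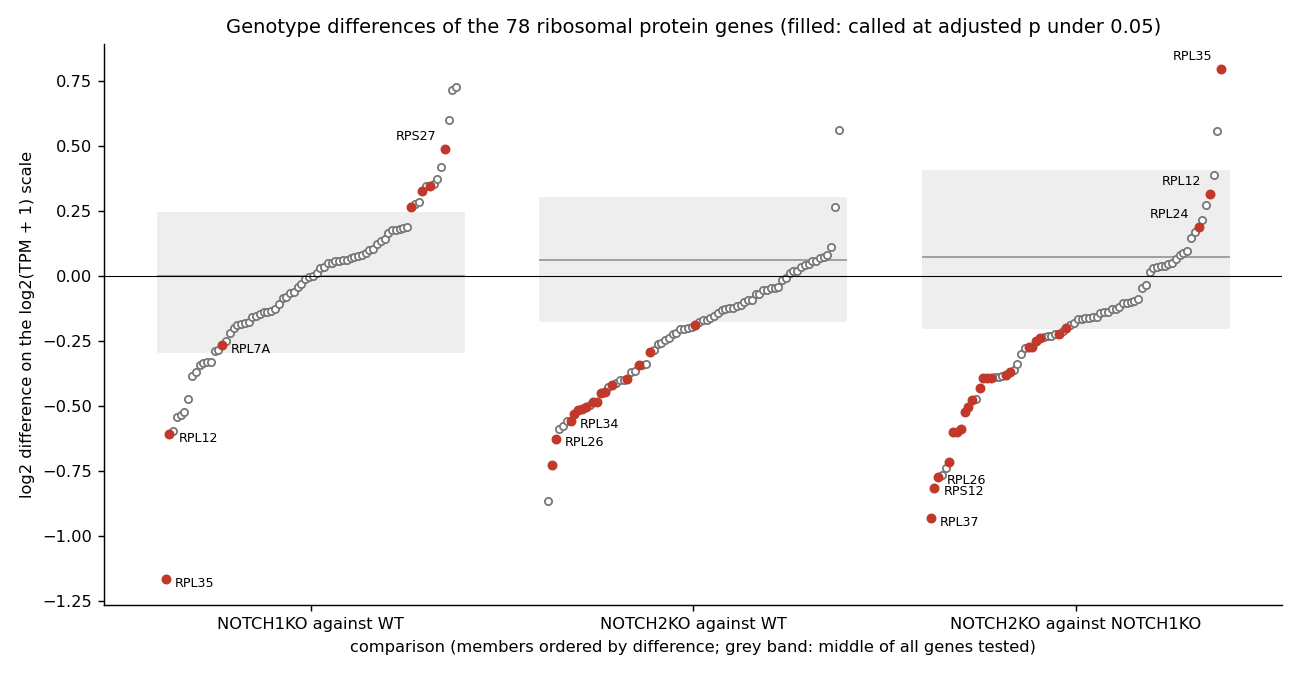
Log2 difference of each of the 78 genes on the log2(TPM + 1) scale in the 3 genotype comparisons, ordered by size, with filled points for those called at an adjusted p under 0.05. The grey band spans the lower to the upper quartile of all genes tested and the line in it their median, and the NOTCH2KO against WT points sit mostly below it, with 64 of 78 under 0.

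The number that fell in NOTCH2KO changed when single libraries were left out. So did the number of all genes called lower, which was 1296 as fitted. Without the WT or the NOTCH2KO library on Jagged1 with DAPT, 9 members fell, beside 839 and 816 of all genes. It was 10 members without WT on Fc with DMSO, beside 808. Without the NOTCH2KO library on Jagged1 with DMSO it was 11, beside 898. In all settings 0 members rose. With centred libraries 21 fell and with coverage 24, beside 1877 and 1791 of all genes. Over all genes 61.9% of the calls were higher as fitted, 42.9% after centring and 53.9% with coverage.

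As a share of each library's TPM, the 78 genes took 7.73%, 8.002%, 7.32% and 7.70% in the WT libraries. They took 7.49%, 7.54%, 7.75% and 7.73% in the NOTCH1KO libraries, but 6.70%, 6.89%, 5.90% and 6.63% in the NOTCH2KO libraries. The WT and NOTCH1KO ranges overlapped, and all NOTCH2KO libraries lay below them. The means were 7.69% ± 0.28, 7.62% ± 0.13 and 6.53% ± 0.43 (SD, n = 4). The named pseudogenes took 3.86% ± 0.18, 3.98% ± 0.0626 and 3.46% ± 0.155, also lowest in NOTCH2KO, but higher in NOTCH1KO than in WT. The NOTCH2KO library on Jagged1 with DMSO was lowest in both. TPM is a share of each library, and in bulk RNA fewer cells with a transcript and less transcript per cell cannot be told apart.

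**Figure D4:**
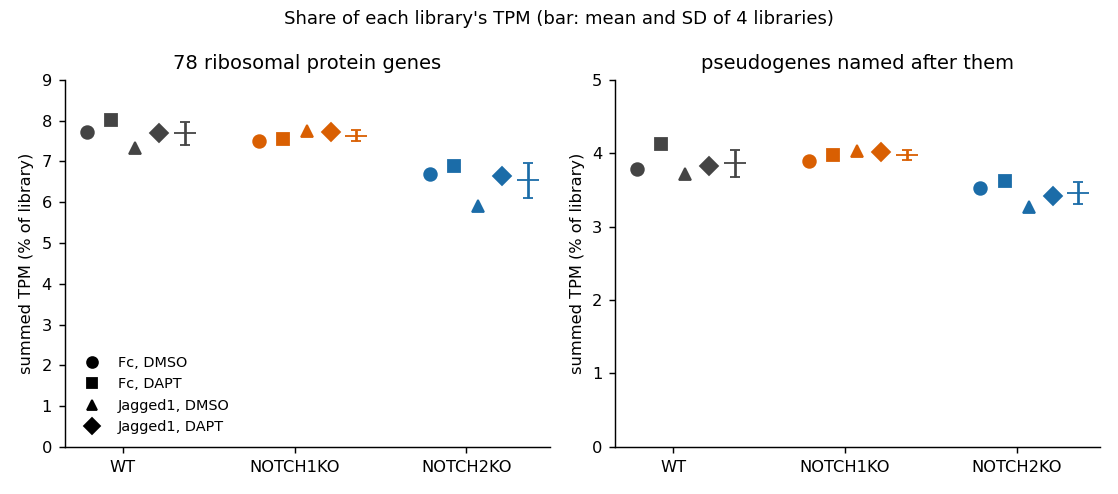
Percent of each library's TPM held by the 78 genes (left) and by the pseudogenes named after them (right), with a symbol per culture, the mean and SD of 4 libraries beside each genotype and both y axes starting at 0. NOTCH2KO spans 5.90% to 6.89% on the left, below the 7.32% to 8.002% of WT.

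The third comparison set both lines against each other, sharing their libraries with the comparisons above. In NOTCH2KO against NOTCH1KO, 22 members fell, 9 of the large and 13 of the small subunit, and 3 rose, all of the large subunit. The background was 11.9% lower and 19.8% higher. Genotypes did not overlap for 26 members that were lower and 3 that were higher, beside 12.3% and 19.6% of all genes, and the median log2 difference was -0.17 against 0.07 over all genes. All 25 kept their direction in 4 of 4 cultures, again the cultures from which they were called. RPS12 fell by 0.81 (SE 0.06, adjusted p = 5.9e-05) and RPL26 by 0.77 (SE 0.07, adjusted p = 0.000232). RPL4, RPS25 and RPSA fell by 0.60, 0.60 and 0.59, and RPS26 and RPS3A by 0.50 and 0.48. RPL6 fell by 0.39 (adjusted p = 0.00167).

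RPL37 had the largest fall, 0.93 with an SE of 0.24, but it leaned on a NOTCH1KO value of 2150.5 TPM on Jagged1 with DMSO beside 822 to 1112 TPM in the other NOTCH1KO libraries, against 536 to 704 TPM in NOTCH2KO. RPS23, which lies in the decoding centre, fell by 0.71 (SE 0.19), with 1294, 1232, 623 and 1202 TPM in NOTCH2KO and 1550.2 to 1856 TPM in NOTCH1KO. Of those that rose, RPL35 was higher by 0.80 ± 0.14 (adjusted p = 0.00413), RPL12 by 0.32 ± 0.08 (adjusted p = 0.0188) and RPL24, which bridges the subunits, by 0.19 ± 0.05 (adjusted p = 0.0262). After centring, 1 member was higher and 32 were lower, and the calls of RPL12 and RPL24 were lost. Over all 25 other settings, the call of RPL24 was lost in 9 and that of RPL12 in 6. The call of RPS26 was lost in 5, and those of RPL37 and RPS23 in 2 each. Over all genes 62.5% of the calls were higher as fitted and 40.03% after centring, and coverage gave 4 higher and 34 lower members.

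Grouped by role, RPL5 and RPL11 did not pass the test in NOTCH1KO against WT, and RPL11 alone fell in NOTCH2KO, from 2437, 2519, 2299 and 2428 TPM in WT to 1882, 1970.2, 1835 and 1962 TPM (log2 difference -0.34 ± 0.06, adjusted p = 0.00515). RPL5 had a log2 difference of -0.16 there. Of the 3 stalk genes, 0 were called in any genotype comparison, and RPLP2, with 887 ± 125 TPM in WT and 601 ± 66.7 in NOTCH2KO, had a log2 difference of -0.56 ± 0.18 (adjusted p = 0.0669). The ubiquitin fusions RPS27A and FAU were not called. Of 8 genes listed around the exit of the tunnel, a list that does not hold RPL4, RPL35 fell in NOTCH1KO and RPL26 in NOTCH2KO. That is 12.5% in each, beside 12.8% and 7.35% of all genes and 3.85% and 20.5% of the 78 members. Of 19 genes linked to Diamond-Blackfan anaemia, 2 rose (RPS27 and RPS24) and 1 fell (RPL35) in NOTCH1KO, at 10.5% and 5.26% not above the background of 10.7% and 12.8%. In NOTCH2KO 5 fell, RPL26, RPS26 and RPS10 among them. That is 26.3%, beside 20.5% of the 78 members and 7.35% of all genes.

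On chromosome X, 0 of the 4 genes were called in a genotype comparison as fitted. RPL10, at the core of the large subunit, had 717, 769.8, 826 and 775 TPM in WT and 909, 959, 953 and 944 TPM in NOTCH1KO. These did not overlap, yet the difference of 0.29 ± 0.09 missed the threshold (adjusted p = 0.0509). It passed in 9 of 25 other settings, coverage and median centring among them, as did RPL39 in 3 and RPS4X in 2. RPL39, in the wall of the exit tunnel, had a log2 difference of 0.60 ± 0.21, and its WT library on Fc with DAPT stood at 322 TPM beside 652 to 721 TPM in the other WT libraries. RPS4X and RPL36A differed by 0.18 ± 0.06 and 0.06 ± 0.08.

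The position of the genes allowed a further description, since each member could be set beside all genes within 5 Mb on either side whose mean TPM reached 5, between 15 and 178 of them. In NOTCH1KO against WT, the 98 neighbours of RPL35 had a median log2 difference of -0.88, the 96 neighbours of RPL12 one of -0.79 and the 113 neighbours of RPL7A one of -0.67. RPL35 thus lay 0.29 below its neighbours, RPL12 0.18 above and RPL7A 0.40 above. RPS6, on the other arm, had 17 neighbours with a median of 0.18, close to its own 0.14. Across the 78 genes the member's difference and its neighbours' median correlated with r = 0.61, and with r = 0.48 without the 3 genes of the long arm of chromosome 9. This is a description over genes that share the same 12 libraries. The 4 small-subunit genes that rose all lay above their neighbours, by 0.20 to 0.36. They were called higher from these same libraries, so this adds no separate support.

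In NOTCH2KO against WT, 69 of the 78 members lay below the median of their neighbours, the median over all 78 was -0.21 in log2, and r was 0.41. All 16 that fell lay below it, by 0.03 (RPL12) to 0.62. They were called lower from these same libraries, so this adds no separate support. RPS25 lay 0.43 below the median of its 53 neighbours, RPL6 0.45 below that of 67 and RPL26 0.48 below that of 107, while RPS12, whose 24 neighbours had a median of -0.36, lay only 0.13 below. In NOTCH2KO against NOTCH1KO, 66 of 78 lay below their neighbours and r was 0.53. The part of the neighbourhood in these differences was not tested.

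**Figure D5:**
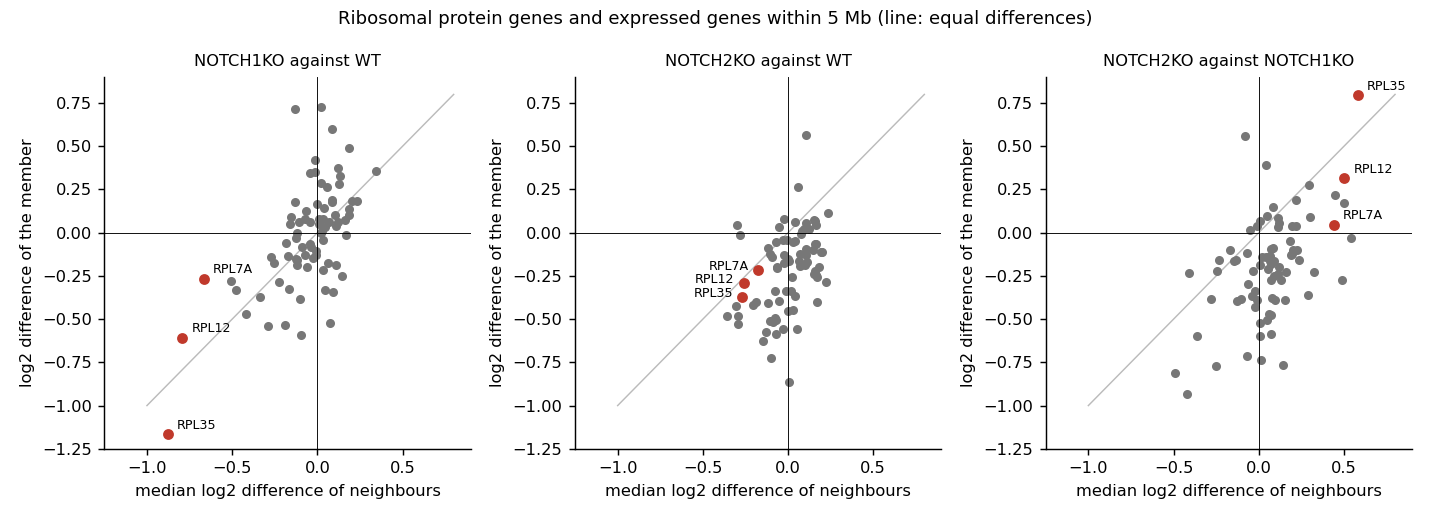
Log2 difference of each of the 78 genes (y axis) against the median log2 difference of the expressed genes within 5 Mb of it (x axis), with a panel per genotype comparison and a line where both are equal. RPL35, RPL12 and RPL7A (red) sit far to the left in NOTCH1KO against WT, and in NOTCH2KO against WT 69 of 78 points lie below the line.

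Adding the named pseudogenes to each member, an alternative chosen after the values were seen, left 6 of the 7 calls of NOTCH1KO against WT, all 16 of NOTCH2KO against WT and 24 of the 25 between the lines. RPL35 then differed by -1.19, RPL12 by -0.67, RPS25 by -0.52 and RPL6 by -0.44 in log2. The summed total for RPL35 was 3408 TPM in WT, 1508 TPM in NOTCH1KO and 2601 TPM in NOTCH2KO.

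The plates and the drug gave no call among the 78 genes. Of all genes tested, 0.0114% were called for Jagged1 against Fc in DMSO, 0.0284% for DAPT against DMSO on Jagged1, 0.0341% for DAPT against DMSO on Fc and 0.00568% for Jagged1 against Fc in DAPT. At an unadjusted p under 0.05 there were 2, 5, 2 and 4 members by limma, the only tool run. All genes were not counted at that threshold. On Jagged1 with DMSO, the ligand without the inhibitor, 57 of the 78 genes were below their level on Fc (73.1%, beside 46.9% of all genes). The members' median log2 difference was -0.08 against 0.02 over all genes. DAPT on Jagged1 left 55 of the 78 above DMSO and 29.5% of them below, where 49.7% of all genes were below. The members' median was 0.06, against 0.001 over all genes. These comparisons share the 3 Jagged1 with DMSO libraries, among them the NOTCH2KO library that was lowest for 31 members. RPS14 had the lowest p for DAPT on Jagged1, at 0.27 ± 0.09 (adjusted p = 0.307). On Fc, DAPT was followed by more RPSA in 3 of 3 genotypes, 622 against 522, 845 against 677 and 570.3 against 397 TPM, a difference of 0.36 ± 0.08 that did not pass the test (adjusted p = 0.535).

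The Jagged1 with DMSO response was not called different between genotypes for any member. Of all genes, 0.0851% were called for NOTCH1KO against WT and 0.0851% for NOTCH2KO against WT, and 0 members were. At an unadjusted p under 0.05 by limma there were 4 and 5 members, again without a count over all genes. The lowest adjusted p was 0.523 for RPS19 in the first and 0.22 for RPS23 in the second, where single libraries stood far from the rest of their genotype, RPS19 at 2049 TPM in WT and RPS23 at 623 TPM in NOTCH2KO. This model left 4 residual degrees of freedom.

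Other genes of the pathway, from lists assembled with earlier results known, are given by their counts. RACK1, a scaffold on the small-subunit head, fell by 0.40 in NOTCH2KO (adjusted p = 0.0312) and was not called in NOTCH1KO. Of 44 ribosome biogenesis factors tested, 13 fell (29.5%, beside 7.35% of all genes) and 0 rose (beside 12%) in NOTCH2KO against WT, with a median of -0.11. In NOTCH1KO 13 rose (29.5%, beside 10.7%) and 4 fell (9.09%, beside 12.8%). NOP2 and EMG1, which both methylate ribosomal RNA, fell by 1.04 and 0.83 in NOTCH2KO. Both lie near the end of the short arm of chromosome 12, where the median log2 difference of the expressed genes within 5 Mb was -0.40 for the 83 around NOP2 and -0.38 for the 80 around EMG1. GNL3 (nucleostemin) rose by 0.71 in NOTCH1KO, where its 103 neighbours had a median of 0.03. Of 19 genes of RNA polymerase I and its cofactors, 4 fell (21.1%, beside 7.35%) and 1 rose (5.26%, beside 12%) in NOTCH2KO. POLR1C fell by 0.55, and its 64 neighbours had a median of -0.33.

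Of 33 initiation factors, 7 fell (21.2%, beside 7.35% of all genes) and 1 rose (3.03%, beside 12%) in NOTCH2KO. In NOTCH1KO 4 fell (12.1%, beside 12.8%) and 8 rose (24.2%, beside 10.7%). EIF2B1 fell by 0.60 in NOTCH2KO, where its 74 neighbours had a median of -0.02. EIF4A1, the RNA helicase of the cap complex, rose by 0.56 in NOTCH1KO, where its 107 neighbours had a median of 0.05. Of 10 other genes whose transcripts carry a TOP motif, 0 were called in NOTCH2KO against WT, with a median of -0.07, and 2 rose in NOTCH1KO (20%, beside 10.7%), NPM1 by 0.37 among them. Of 10 elongation and termination factors, 1 fell and 1 rose in NOTCH2KO (10% each, beside 7.35% and 12%), EIF5A by 0.46 and EEF1A2 by 1.72. Among the regulators, MYC had a log2 difference of 0.82 in NOTCH2KO that did not pass the test (adjusted p = 0.0991), MTOR 0.09 and LARP1 0.16, while EIF4EBP1, which holds back cap-dependent translation, fell by 0.61 in NOTCH2KO and 0.89 in NOTCH1KO. Of 78 mitochondrial ribosomal protein genes, which serve the separate ribosome of mitochondria, 17 fell (21.8%, beside 7.35%) and 2 rose (2.56%, beside 12%) in NOTCH2KO, with a median of -0.08. In NOTCH1KO 11 fell and 7 rose, at 14.1% and 8.97% close to the background of 12.8% and 10.7%. MRPS2, on chromosome 9, fell there from 117 ± 14.3 to 43.6 ± 20.6 TPM, and its 81 neighbours had a median of -0.65. In NOTCH2KO against WT its log2 difference was -1.11, beside a median of -0.11 for the same neighbours.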

How the data were processed

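RNA-seq of 12 DAOY libraries was deposited as 1 table per library. Per the file headers the authors gave each gene its TPM, its FPKM and its mean read coverage, and per the labels poly-A selected, stranded libraries were read from 1 end over 51 bases. The submitters' processing notes name GRCh37, CASAVA and bcl2fastq 2.17, and for the aligner, quantifier and annotation release the sources used here give no name. The 78 members and all lists were chosen with earlier results of these data known. TPM was summed per identifier, filtered at a mean of at least 1 (17621 genes) and taken as log2(TPM + 1), which understates changes of low genes. limma 3.58.1 (R 4.3.3, trend) fitted genotype plus culture with 6 residual degrees of freedom, or 4 with the interaction, and Benjamini-Hochberg adjusted p-values over all genes were called at 0.05. All error terms of log2 differences are SEs of that fit and those of TPM are SDs. Reads per library were worked out by dividing coverage by FPKM. Tables were made with Python 3.11.15 and pandas 2.3.3.

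Named were the 4 markers RPL35, RPL12, RPS25 and RPL6, up to 10 called members per comparison by size, the 5 highest, 5 lowest and 5 most variable members, those on chromosomes 9 and X, and examples of each list. RPL4, RPL7, RPL9, RPL23, RPL24, RPL27, RPS3, RPS3A, RPS14, RPS15, MTOR and LARP1, among others, were named beyond that rule after their values were seen. Results for some genes that the rule would name are not reported here, although the counts include them. Pseudogene names came from GENCODE v29 (52526 of 63677 identifiers and 77 of 78 members matched). Start sequences came from RefSeq on GRCh38.p14, whereas gene coordinates are those of the files. Alternatives were another pseudocount, filter or unit, median centring, rescaling over non-members, library weights, a fold threshold, other models, leaving out each library and, chosen after the values were seen, adding pseudogenes to members.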

Additional observations from a re-analysis of the deposited data

Results flagged for a closer look

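In each genotype, the highest or lowest of 4 libraries was compared with the other 3 for the genes reported here and for their summed share. Of 228 groups examined, 18 held a library far from the others, in 17 genes, where chance alone gives about 1 in 20 groups.

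In WT, the library on Jagged1 with DMSO stood apart for RPL23 (346 TPM beside 492 to 505), RPL32 (469 beside 544 to 555), RPL34 (657 beside 554 to 567), RPS3 (1115 beside 1308 to 1332) and RPS19 (2049 beside 603 to 766). The WT library on Jagged1 with DAPT stood apart for RPL15 (846 TPM beside 653 to 681) and RPL27A (1117 beside 699 to 763).

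In NOTCH1KO, RPL22 stood at 410.1 TPM on Fc with DAPT beside 204 to 209.8, RPL31 at 999 on Fc with DMSO beside 1145 to 1149.5, and RPL37A at 898 and RPL9 at 282 on Jagged1 with DMSO beside 833 to 843 and 456 to 485.

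In NOTCH2KO, the library on Jagged1 with DMSO stood apart, on the low side, for RPS23 (623 TPM beside 1202 to 1294), RPS27 (439 beside 460.2 to 464), RPS27A (915 beside 1205 to 1255) and RPS3 (858 beside 1002 to 1005). On Fc with DAPT, RPL30 stood at 1504 TPM beside 1989 to 2088 and RPL7A at 1856 beside 1416 to 1438. RPS25 stood at 350.1 TPM on Jagged1 with DAPT beside 273 to 276.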

How the results depend on the processing

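The number of ribosomal protein genes called in NOTCH1KO against WT was 7, and 14 with coverage, 2 with a log2 difference of at least 0.58 required, and 6 to 11 with single libraries left out (11 without NOTCH1KO on Jagged1 with DAPT). In NOTCH2KO against WT it was 16, and 2 with that difference required, 24 with coverage and 9 to 19 with single libraries left out. In NOTCH2KO against NOTCH1KO it was 25, and 38 with coverage, 8 with that difference required and 18 to 28 with single libraries left out. Calls over all genes also changed in these settings, but not always in the same direction as those of the members. In NOTCH2KO against WT, 1296 genes were lower as fitted, 1791 with coverage, 566 with that difference and 808 to 1565 with single libraries left out. In NOTCH2KO against NOTCH1KO these were 2089, 2429, 891 and 1457 to 2034. In NOTCH1KO against WT they were 2253, 2752, 1512 and 1503 to 2176. Without NOTCH1KO on Jagged1 with DAPT, where 11 members were called, fewer of all genes were called than as fitted. That setting gave 1601 higher and 2130 lower, beside 1884 and 2253 as fitted. The response to Jagged1 with DMSO in NOTCH2KO against WT gave 0 calls, 2 with library weights and 0 to 1 with single libraries left out (1 without NOTCH1KO on Fc with DAPT). The cause of these shifts was not tested, apart from the required difference, which can only remove calls. The 4 comparisons of plates and drug gave 0 in every setting. Of 48 calls for single genes, 9 were kept in all 25 other settings, 39 were lost in at least 1 and 0 changed direction. The 25 include the required difference, which alone removed some of the 39, such as RPS25 and RPL6 in NOTCH2KO against WT. With 1 library per combination of genotype and culture there was no direct estimate of replicate error, and shared reads between genes and pseudogenes limit the levels.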

Other observations

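Of 8 paralogues of the ribosomal protein genes, 7 were expressed enough to be tested, 6 of them with a mean of 68.0 TPM (RPL39L) to 317 TPM (RPL36AL). RPL10L, a retrocopy of RPL10 known from the testis, had 12.5, 14.0, 15.3 and 14.1 TPM in WT and 19.6 to 21.5 TPM in NOTCH1KO, but 0 to 0.25 TPM in NOTCH2KO. The NOTCH2KO libraries were close to 0 and the 3 genotypes did not overlap, with log2 differences from WT of 0.52 in NOTCH1KO and -3.71 in NOTCH2KO on the log2(TPM + 1) scale, both called by limma. RPL36AL fell by 0.45 in NOTCH1KO, with 253, 250.4, 264 and 249.7 TPM beside 337 to 358.7 TPM in WT, while its NOTCH2KO values of 331 to 370.3 TPM overlapped those of WT. RPL3L was listed at 0 in all libraries. Of the 7 paralogues tested, 3 rose and 1 fell in NOTCH1KO (42.9% and 14.3%, beside 10.7% and 12.8% of all genes). In NOTCH2KO 1 rose and 1 fell (14.3% each, beside 12% and 7.35%). Among 12 host genes of small nucleolar RNAs, 2 rose and 2 fell in NOTCH1KO (16.7% each, beside 10.7% and 12.8% of all genes). SNHG7 on chromosome 9 was among those that fell, by 1.82. A further count, in NOTCH2KO, gave 1 that rose and 1 that fell (8.33% each, beside 12% and 7.35%).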
